A study of Mus musculus with 6 samples.

Results

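The 35 genes described here encode aminoacyl-tRNA synthetases, the enzymes that load each amino acid onto its transfer RNA. They were taken by name from the deposited table of 20036 genes, and all 35 were found under their current symbols. Of these, 19 are counted as cytosolic and 16 as mitochondrial, by the numbering of their names. The study sequenced RNA of 3 melittin and 3 control libraries made from THP-1, an established human line derived from monocytic leukaemia. In both groups the phorbol ester PMA (100 ng/ml, 48 h), which turns THP-1 monocytes into adherent macrophage-like cells, was given in the bottom compartment of Transwell inserts. For the melittin group, tumour cells were placed above the porous membrane, and the co-culture of 48 h contained 3 µg/ml melittin, a membrane-lysing peptide from bee venom. The labels say neither what the control wells received nor whether they held tumour cells, so melittin and co-culture cannot be told apart. The tumour line is not named in the labels used here. The organism label reads mouse, but all 20036 gene identifiers were human.

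A synthetase activates its amino acid with ATP and transfers it to the matching tRNA, so that the ribosome can read the code. Most amino acids have a cytosolic enzyme and a second nuclear gene whose product is imported to charge the tRNAs of the mitochondrion. GARS1 and KARS1 each supply both compartments from a single gene. Part of the cytosolic enzymes sit in a multi-synthetase complex, and many are described as targets of ATF4, the transcription factor of the integrated stress response, which is switched on when uncharged tRNA activates the kinase GCN2. In macrophages several synthetases also have roles outside translation, among them WARS1, which interferon-gamma induces, and EPRS1, which belongs to a complex that silences inflammatory transcripts.

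Libraries held 16001423 to 19597781 counts, and 14195 to 14440 genes had at least 1 count. Of the macrophage markers, SPI1, CSF1R, CD14, ITGAM and PTPRC were present in both groups, while CD68 had 1 count in melittin and 0 in control libraries. The summed level of the 10 macrophage markers was 933.9 to 944.4 CPM (read counts scaled to a common library size by the TMM method) with melittin and 1822 to 1833 CPM in controls, and of 9 tested markers 2 rose and 6 fell, where 38.1% of all tested genes rose and 38.3% fell. Of 11 prostate and epithelial markers 5 were at 0 in every library, EPCAM, KRT18, KRT19, KLK2 and TMPRSS2. Of 4 fibroblast markers COL1A2 was at 0, and the list summed to 26.0 to 28.7 CPM with melittin and 20.9 to 21.9 CPM in controls. Whether any marker list has a part in the values below was not tested. Nothing in the labels says that replicates are separate cultures. The p-values therefore rest on library-to-library spread that may be technical only.

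The deposited annotation fits the division into compartments, though its terms overlap. All 19 cytosolic members carry the Gene Ontology term for the cytosol and all 16 mitochondrial members a term for the mitochondrion. A term for the mitochondrion is also carried by 5 cytosolic members, and the term for the cytosol by 4 mitochondrial members. The cytosolic members GARS1, KARS1 and QARS1 also carry the term for the mitochondrial matrix. In bulk RNA, a change in RNA per cell and a change in the mix of cells cannot be told apart.

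Cytosolic synthetases moved in both directions with melittin. Of 19 tested members 9 rose and 8 fell, at an adjusted p of 0.05 in edgeR over all 12029 tested genes. Their median log2 fold change (melittin over control) was 0.02, against −0.01 over all tested genes. Most genes of the table were called (76.4%), 38.1% higher and 38.3% lower, and for the cytosolic members these shares were 47.4% higher and 42.1% lower. No difference from that background was tested. FARSB was the only tested synthetase called at a fold change of 2 or more. Calls of that size were made for 19.5% of all tested genes, with 1146 up and 1198 down. When a fold change of at least 1.5 was required, 5 members stayed above and 1 below, AARS1, MARS1, YARS1, CARS1 and SARS1 above and FARSB below. Of all tested genes 29.1% passed that test, 14.6% higher and 14.4% lower.

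**Figure D1:**
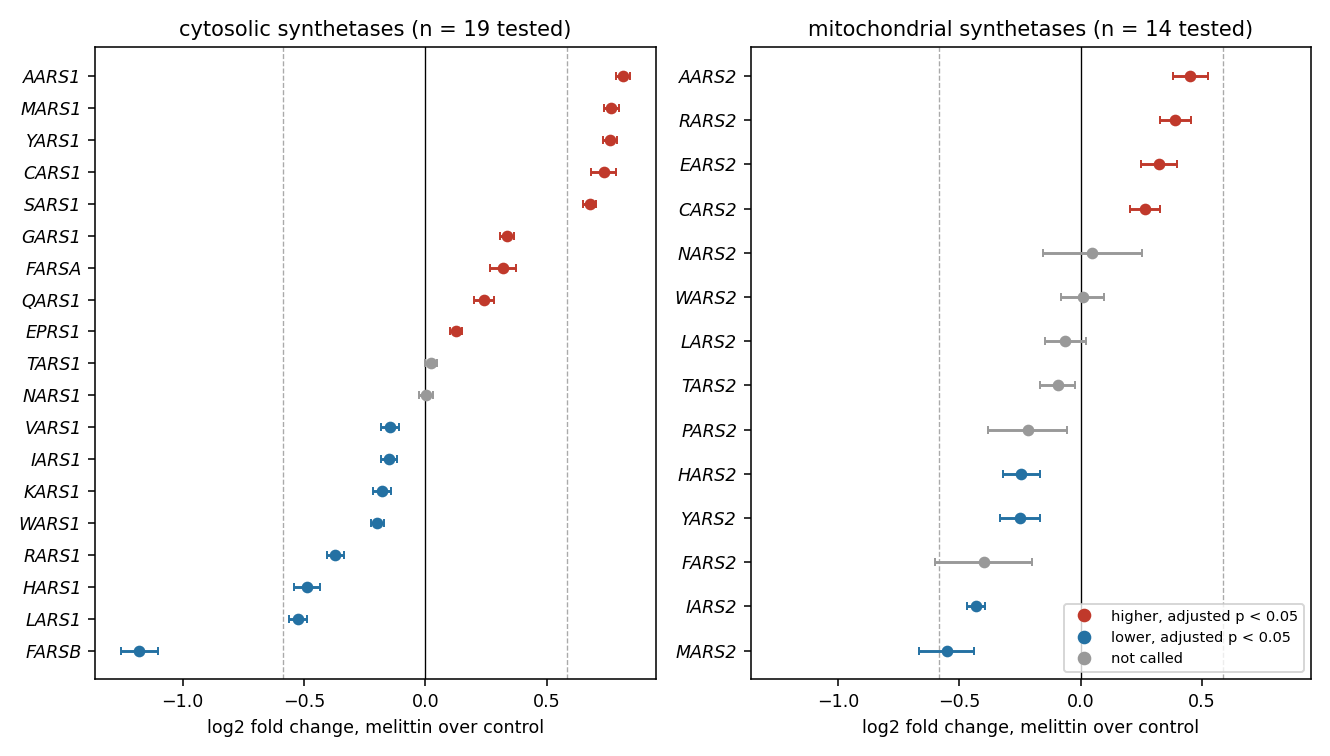
Log2 fold change of each tested synthetase (melittin over control), with the SE derived from the edgeR test as bars, for 19 cytosolic (left) and 14 mitochondrial members (right). Dashed lines mark a fold change of 1.5. AARS1, MARS1, YARS1, CARS1 and SARS1 lie right of the upper line, and FARSB at −1.18 lies left of the lower one.

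AARS1, which charges alanine and removes wrongly activated serine, had the largest rise. Its gene lies on the minus strand of chromosome 16 (70251983 to 70289707, GRCh38). It stood at 259.9, 257.5 and 256.6 CPM in the melittin libraries, against 150.0, 144.1 and 145.9 CPM in the controls. The groups were well apart, with a log2 fold change of 0.81 (SE 0.0289, edgeR adjusted p = 1.16e-19). YARS1 (chromosome 1, 32775237 to 32818031, minus strand) is the tyrosine enzyme, whose secreted fragments act on leukocytes. It had 365.0, 345.4 and 343.6 CPM with melittin, against 205.0, 206.2 and 210.2 CPM in controls. Its level was 1.70-fold higher with melittin, and no melittin library came near a control. SARS1 (chromosome 1, 109213918 to 109238182, plus strand) charges serine and also starts selenocysteine synthesis on its tRNA. It had 343.9, 329.9 and 335.4 CPM with melittin, against 207.1, 216.7 and 207.1 CPM in controls. Its log2 fold change was 0.68 (SE 0.0281). CARS1 (chromosome 11, 3000922 to 3057613, minus strand), the cysteine enzyme, had 75.5, 72.7 and 65.6 CPM with melittin, against 42.7, 43.6 and 42.2 CPM in controls. The melittin libraries of CARS1 were more spread (SD 5.13 CPM) than the controls (SD 0.722 CPM), yet all lay above them.

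MARS1 charges methionine, including that of the initiator tRNA. It had 278.6, 267.2 and 265.4 CPM with melittin, against 156.0, 162.2 and 158.3 CPM in controls, a log2 fold change of 0.77 (SE 0.0296). Its gene (chromosome 12, 57475445 to 57517569, plus strand, GRCh38) overlaps DDIT3, the stress factor CHOP, on the opposite strand by 982 bases. DDIT3 was 3.77-fold higher with melittin. MARS1 also overlaps ARHGAP9 on the opposite strand, by 13370 bases. ARHGAP9 had 1260 counts over the melittin and 1313 over the control libraries, and a log2 fold change of 0.23. The strand setting of the counting is not given in the sources used here, so reads of these overlaps cannot be assigned with certainty. DDIT3 had 1761 counts over the melittin libraries and MARS1 13043.

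**Figure D2:**
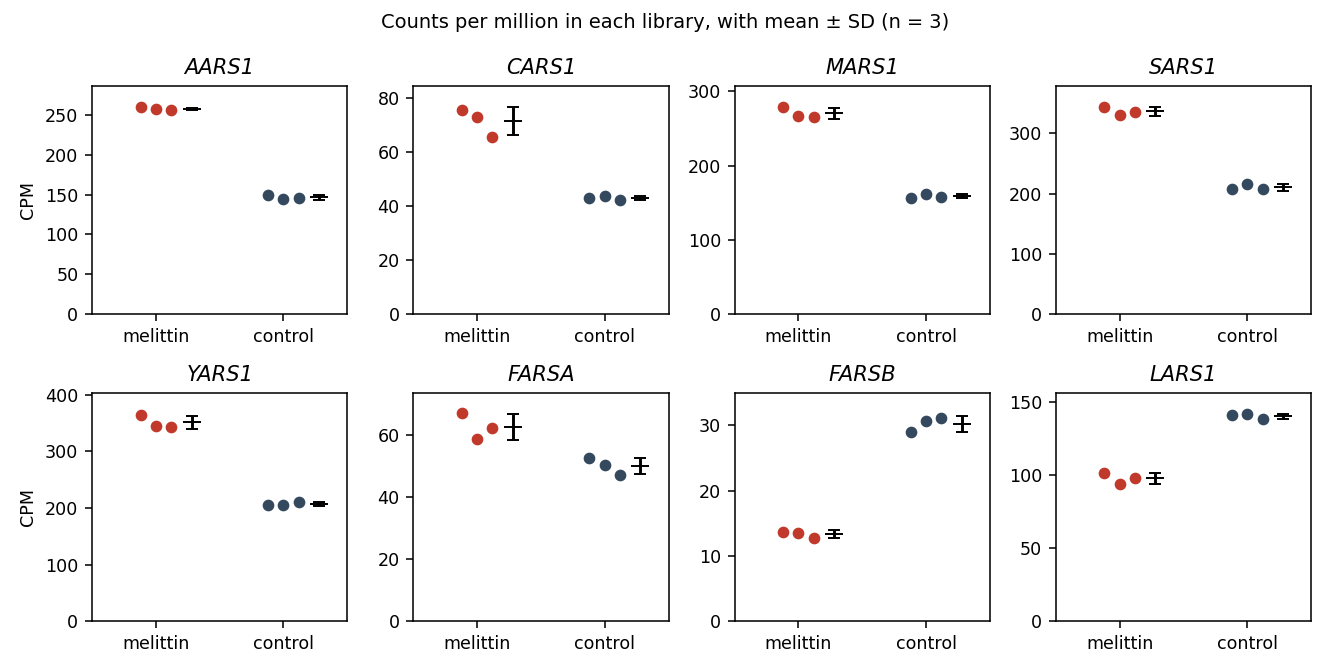
CPM of 8 cytosolic synthetases in each library, with melittin libraries left and control libraries right of each panel and the mean ± SD (n = 3) beside the points. The groups do not overlap in any panel, and FARSB and LARS1 are lower with melittin while the other 6 are higher.

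The remaining cytosolic members that rose did so by less than 1.5-fold. GARS1, the glycine enzyme of both compartments, had 263.8, 253.5 and 262.6 CPM with melittin, against 201.4, 205.8 and 210.9 CPM in controls. It rose by 0.34 on the log2 scale. QARS1, which charges glutamine, averaged 98.1 ± 3.92 CPM with melittin and 82.9 ± 1.86 CPM in controls (SD, n = 3 each). EPRS1, the joined glutamate and proline enzyme, averaged 350.7 ± 3.35 CPM with melittin and 321.4 ± 4.76 CPM in controls. The log2 fold change of EPRS1 was 0.13, and it was −0.11 and called lower when only total counts were used for scaling. QARS1 was not called under that scaling (0.01, edgeR adjusted p = 0.812).

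The subunits of phenylalanyl-tRNA synthetase went opposite ways. This enzyme is an assembly of the catalytic alpha subunit FARSA and the beta subunit FARSB, which holds the editing site. FARSB (chromosome 2, 222566899 to 222656092, minus strand, GRCh38) had 13.7, 13.6 and 12.7 CPM with melittin, against 28.9, 30.6 and 31.1 CPM in controls. It was 2.26-fold lower, the largest change of any synthetase (log2 fold change −1.18, SE 0.0776, edgeR adjusted p = 1.27e-13). FARSA (chromosome 19, 12922479 to 12934037, minus strand) had 67.0, 58.8 and 62.1 CPM with melittin, against 52.5, 50.4 and 47.1 CPM in controls, a log2 fold change of 0.32 (edgeR adjusted p = 5.78e-06). The call of FARSA ended under total-count scaling (0.09, adjusted p = 0.133) and after a fitted dependence on gene length was taken out (0.11, adjusted p = 0.06). The ratio of FARSA to FARSB within a library needs no scaling between libraries. In FPKM (counts per gene length and library total, as deposited) it was 13.6, 12.02 and 13.6 with melittin, against 5.04, 4.58 and 4.20 in controls.

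Other cytosolic members fell by less than 1.5-fold. LARS1, the leucine enzyme, which also acts as a leucine sensor for mTORC1 (chromosome 5, 146110566 to 146182696, minus strand), had 101.4, 93.6 and 97.8 CPM with melittin, against 141.0, 141.4 and 138.2 CPM in controls (log2 fold change −0.52, SE 0.0357). HARS1, the histidine enzyme known as the autoantigen Jo-1, had 58.3, 52.2 and 60.1 CPM with melittin, against 82.9, 80.8 and 74.4 CPM in controls. RARS1, the arginine enzyme, had 113.6, 120.2 and 111.6 CPM with melittin, against 147.9, 149.8 and 149.5 CPM in controls. In each of these the groups did not overlap, as for 17 of 19 cytosolic members and for 77.4% of all tested genes (38.3% higher and 39.1% lower).

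WARS1, the tryptophan enzyme, was lower with melittin by a small step. It had 269.1, 276.5 and 286.6 CPM with melittin, against 322.5, 311.7 and 320.1 CPM in controls, a log2 fold change of −0.20 (SE 0.0279, edgeR adjusted p = 4.09e-07). KARS1, IARS1 and VARS1, which charge lysine, isoleucine and valine, had log2 fold changes of −0.18, −0.15 and −0.15. KARS1 averaged 103.7 ± 3.71 CPM with melittin and 117.2 ± 3.00 CPM in controls. IARS1 averaged 141.3 ± 3.61 CPM with melittin and 156.8 ± 1.75 CPM in controls, and VARS1 93.5 ± 2.21 CPM with melittin and 103.3 ± 2.78 CPM in controls (SD, n = 3 each). After the dependence on gene length was taken out, IARS1 turned to a rise of 0.14 (edgeR adjusted p = 0.00038). The deposited gene length of IARS1, 22418 bases, is the longest of all members.

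TARS1 for threonine, the synthetase with the highest FPKM, was not called. It had 444.7, 463.3 and 458.7 CPM with melittin, against 441.1, 447.8 and 454.7 CPM in controls (log2 fold change 0.02, edgeR adjusted p = 0.373). NARS1, for asparagine, had 245.8, 248.2 and 238.6 CPM with melittin, against 246.7, 236.3 and 248.4 CPM in controls (0.0034, edgeR adjusted p = 0.919). The groups of both genes overlapped. Both were called lower under total-count scaling, TARS1 at −0.21 and NARS1 at −0.23.

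That scaling lowers each fold change by about the same step, since it moves the median over all tested genes by −0.23 on the log2 scale. With it, 6 cytosolic members were higher and 11 lower. Of all tested genes 78.2% were then called, 26.3% higher and 51.9% lower. AARS1, MARS1, YARS1, CARS1, SARS1 and GARS1 were the 6 that stayed higher. With the length dependence taken out, 9 cytosolic members were higher and 7 lower and 4 mitochondrial members were higher and 5 lower. That fit called 76.1% of all tested genes, 38.4% higher and 37.7% lower. The direction of the summed cytosolic level turned with the scaling. With TMM scaling the sum was 3691, 3634 and 3647 CPM with melittin, against 3207, 3210 and 3219 CPM in controls. As a plain share of all counts it was 0.342%, 0.334% and 0.336% with melittin, against 0.347%, 0.348% and 0.348% in controls.

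Mitochondrial synthetases also moved both ways. Of 16 members 14 were tested, of which 4 rose, 4 fell and 6 were not called, with a median log2 fold change of −0.08. None passed the test against 1.5-fold in edgeR, which 29.1% of all tested genes passed. The 4 rises and 4 falls stand beside 38.1% higher and 38.3% lower among all tested genes, 76.4% in all. No difference from these shares was tested. The median coefficient of variation of CPM was 8.12% with melittin and 4.68% in controls for mitochondrial members. It was 3.16% with melittin and 2.06% in controls for cytosolic members. Under total-count scaling, beside 26.3% higher and 51.9% lower among all tested genes, 2 mitochondrial members were higher and 9 lower. Their summed level was 365.8, 355.4 and 344.9 CPM with melittin, against 379.6, 388.5 and 373.9 CPM in controls. As a share of all counts it was 0.0318% to 0.0339% with melittin and 0.0404% to 0.0421% in controls.

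The 4 mitochondrial members that rose charge alanine, arginine, glutamate and cysteine. AARS2 had 29.8, 29.2 and 28.6 CPM with melittin, against 21.6, 22.8 and 19.4 CPM in controls (log2 fold change 0.45, SE 0.0727, edgeR adjusted p = 3.14e-06). RARS2 had 35.8, 37.5 and 34.4 CPM with melittin, against 26.3, 28.8 and 27.2 CPM in controls (0.39, adjusted p = 4.34e-06). Every melittin library of these genes exceeded every control. EARS2, which also places glutamate on the mitochondrial glutamine tRNA, averaged 24.997 ± 0.637 CPM with melittin and 19.9 ± 0.966 CPM in controls. CARS2 averaged 38.0 ± 1.95 CPM with melittin and 31.6 ± 0.668 CPM in controls. EARS2 and CARS2 were not called under total-count scaling (0.09 and 0.03 on the log2 scale).

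The 4 that fell charge methionine, isoleucine, tyrosine and histidine. MARS2 had 7.54, 7.24 and 6.77 CPM with melittin, against 10.1, 11.0 and 10.5 CPM in controls (log2 fold change −0.55, SE 0.112, edgeR adjusted p = 7.65e-05). IARS2, the mitochondrial enzyme with the highest FPKM, had 113.6, 111.3 and 104.8 CPM with melittin, against 146.3, 152.6 and 145.8 CPM in controls (−0.43, adjusted p = 1.37e-11). YARS2 had 18.7, 18.4 and 16.0 CPM with melittin, against 21.7, 20.3 and 21.4 CPM in controls (−0.25, adjusted p = 0.00733). The groups did not overlap in any of the 3. The YARS2 call ended without melittin replicate 3 (−0.19, adjusted p = 0.0559). HARS2 had 25.3, 22.9 and 20.4 CPM with melittin, against 26.6, 26.5 and 28.5 CPM in controls (−0.25, adjusted p = 0.00523). HARS1 and HARS2 lie head to head on chromosome 5 and overlap by 108 bases, and both were lower with melittin.

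Of the 6 mitochondrial members that were tested but not called, 5 had overlapping groups. Over all 14 tested mitochondrial members the groups did not overlap in 9, beside 77.4% of all tested genes. FARS2, the single-chain phenylalanine enzyme, had 3.12, 2.28 and 3.28 CPM with melittin, against 4.43, 3.20 and 3.76 CPM in controls (log2 fold change −0.40, edgeR adjusted p = 0.0683). It was called lower without control replicate 2 (−0.52, adjusted p = 0.0364) and without melittin replicate 3 (−0.50, adjusted p = 0.0459). TARS2 had 21.1, 21.1 and 21.5 CPM with melittin, against 23.5, 22.7 and 21.8 CPM in controls, groups that did not overlap (−0.10, adjusted p = 0.238). LARS2 had 20.7, 21.2 and 24.3 CPM with melittin, against 23.0, 25.3 and 20.5 CPM in controls. WARS2 had 16.4, 14.1 and 15.6 CPM with melittin, against 15.2, 15.3 and 15.2 CPM in controls. These genes charge threonine, leucine and tryptophan in the mitochondrion. PARS2, for proline, had 5.14, 3.73 and 4.29 CPM with melittin, against 4.58, 4.95 and 5.78 CPM in controls (log2 fold change −0.22, edgeR adjusted p = 0.223). It was called lower under total-count scaling (−0.45, adjusted p = 0.014) and with the length dependence taken out (−0.44, adjusted p = 0.017). FARS2, TARS2, LARS2 and WARS2 were also called lower under total-count scaling. NARS2, for asparagine, had 2.99, 3.28 and 3.82 CPM with melittin, against 4.13, 3.11 and 2.43 CPM in controls. With 41 to 105 counts per library, FARS2, PARS2 and NARS2 allow only coarse statements.

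SARS2 and VARS2, for serine and valine, were nearly uncounted and not tested. SARS2 had 3, 2 and 3 counts with melittin, against 1, 3 and 5 counts in controls. VARS2 had 3, 2 and 5 counts with melittin, against 6, 3 and 1 counts in controls. No difference was detectable at this depth, and 3 counts correspond to 0.141 to 0.201 CPM in these libraries. SARS2 (chromosome 19, 38915266 to 38930763, GRCh38) lies almost wholly, by 15360 of 15498 bases, within an unnamed gene on the same strand that had 0 counts. VARS2 overlaps no gene of the table.

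**Figure D3:**
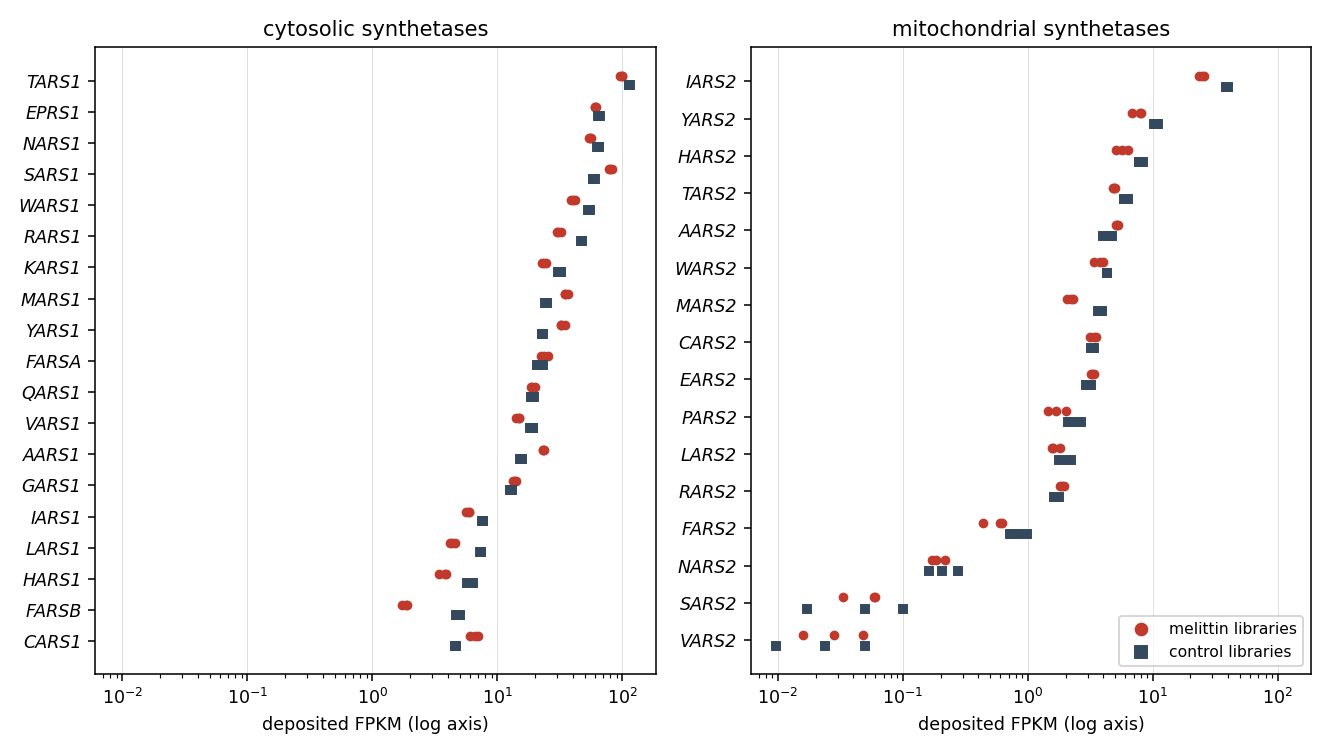
Deposited FPKM (log axis) of the 19 cytosolic (left) and 16 mitochondrial synthetases (right) in each melittin (circles) and control library (squares), ordered by the control mean. The control means run from 4.62 to 113.9 FPKM in the cytosolic and from 0.0276 to 38.8 FPKM in the mitochondrial enzymes, with SARS2 and VARS2 at the bottom.

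Compared per length, cytosolic enzymes stood at higher levels than mitochondrial ones. The median of the members' mean FPKM was 23.6 with melittin and 22.2 in controls for cytosolic members, and 2.74 with melittin and 3.19 in controls for mitochondrial members. TARS1 led in both groups with 98.7 ± 1.78 FPKM with melittin and 113.9 ± 1.61 FPKM in controls (SD, n = 3 each). Behind it in the controls came EPRS1 (65.4 ± 0.945) and NARS1 (64.6 ± 1.70 FPKM), which did not differ beyond their spread. With melittin SARS1 moved up to the place behind TARS1, at 80.6 ± 1.95 FPKM, against 59.2 ± 1.60 FPKM in controls. The lowest cytosolic members in controls were CARS1 (4.62 ± 0.0817 FPKM) and FARSB (4.84 ± 0.185 FPKM). With melittin FARSB was the lowest of them at 1.82 ± 0.0810 FPKM. CARS1, at 6.55 ± 0.485 FPKM with melittin, then lay above HARS1 (3.71), LARS1 (4.36) and IARS1 (5.82 FPKM). These levels rest on the gene lengths of the deposited table, which for some members, such as IARS1 (22418 bases) and LARS1 (20639 bases), lower the FPKM.

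The enzymes of an amino acid were compared across compartments. In 15 combinations in which both genes were tested, the cytosolic enzyme had the higher log2 fold change in 8 and the mitochondrial enzyme in 7. EPRS1 was set against both EARS2 and PARS2, and FARS2 against both FARSA and FARSB. In 3 combinations the enzymes were called in opposite directions. Among all tested genes 38.1% were higher and 38.3% lower, and no difference from pairs of other genes was tested. For methionine, MARS1 rose and MARS2 fell, and the FPKM of MARS1 was 15.9, 15.9 and 16.9 times that of MARS2 with melittin, against 6.63, 6.34 and 6.52 times in controls. For tyrosine, YARS1 rose and YARS2 fell, with ratios of 4.28, 4.12 and 4.73 with melittin, against 2.08, 2.24 and 2.15 in controls. Arginine went the other way, as RARS1 fell and RARS2 rose, with ratios of 16.4, 16.5 and 16.7 with melittin, against 29.0, 26.9 and 28.3 in controls. For alanine, cysteine and glutamate (EPRS1 and EARS2) both enzymes rose, and for isoleucine and histidine both fell. Under total-count scaling EPRS1 was lower and CARS2 and EARS2 were not called. With the length dependence taken out, the isoleucine enzymes were called in opposite directions, IARS1 higher (0.14) and IARS2 lower (−0.47).

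**Figure D4:**
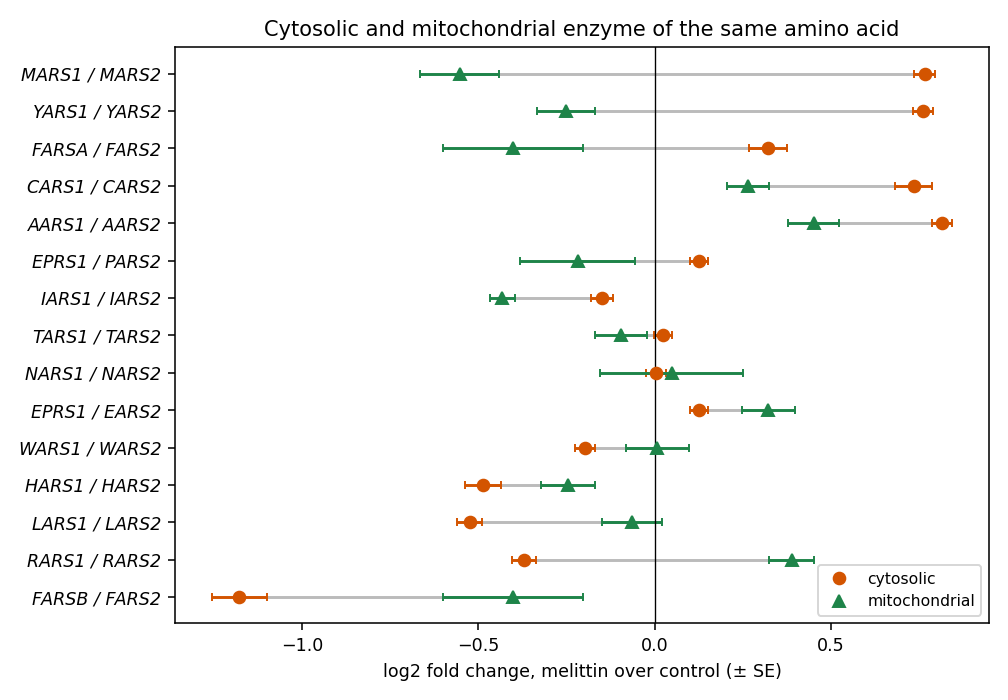
Log2 fold change (melittin over control, ± SE) of the cytosolic (circles) and mitochondrial enzyme (triangles) of the same amino acid, sorted by their difference. MARS1 and YARS1 lie far right of their mitochondrial counterparts, and RARS1 and FARSB far left of theirs.

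In 13 of these 15 combinations the cytosolic enzyme had the higher FPKM in all 6 libraries. The exceptions were isoleucine and histidine. IARS1 had 0.237 ± 0.005 times the FPKM of IARS2 with melittin and 0.195 ± 0.007 times in controls, and HARS1 had 0.659 ± 0.098 times that of HARS2 with melittin and 0.769 ± 0.072 times in controls (SD, n = 3 each). In plain read counts IARS1 and HARS1 exceeded their counterparts, so that these exceptions rest on the deposited lengths.

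The cytosolic members were also described by textbook groups. Of the 11 enzymes widely described as ATF4 targets, 7 rose and 2 fell, with a median log2 fold change of 0.34. These shares, 63.6% and 18.2%, stand beside 38.1% higher and 38.3% lower among all tested genes. All 5 members above the 1.5-fold test are in this group, and IARS1 and WARS1 are the members of it that fell. Of the 8 other cytosolic enzymes, 2 rose (FARSA and QARS1) and 6 fell, with a median of −0.27. Under total-count scaling 6 of the 11 were higher and 5 lower, and 0 of the 8 were higher and 6 lower, beside 26.3% higher and 51.9% lower among all tested genes. The summed level of the 11 was 3039, 3006 and 3005 CPM with melittin, against 2446, 2454 and 2479 CPM in controls, and that of the 8 was 652.6, 627.7 and 642.2 CPM with melittin, against 760.4, 755.8 and 740.3 CPM in controls. These are counts and medians of short lists, chosen with earlier results known, and not a test.

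Members of the multi-synthetase complex rose in 3 of 7 and fell in 4, with a median log2 fold change of −0.15, and the 12 other cytosolic enzymes rose in 6 and fell in 4, with a median of 0.17. All 7 carry the Gene Ontology term of that complex in the deposited table. Within it MARS1 was the member furthest up and LARS1 the one furthest down. By structural class, the 10 enzymes of class I rose in 5 and fell in 5, and the 9 of class II rose in 4 and fell in 3, with medians of −0.01 and 0.02. Beside 38.1% higher and 38.3% lower among all tested genes, nothing is read from these counts.

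Of the scaffold proteins of that complex, AIMP1, the source of a secreted cytokine, rose to 75.2 ± 1.73 CPM with melittin, against 56.4 ± 3.01 CPM in controls. AIMP2 fell to 6.19 ± 1.26 CPM with melittin, against 10.9 ± 0.460 CPM in controls, 1.75-fold lower. EEF1E1 was low and not called (log2 fold change −0.31, edgeR adjusted p = 0.321).

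Genes that complete charging in the mitochondrion were called higher in 1 and lower in 3 of 4, and 38.3% of all tested genes were lower. All 3 subunits of the amidotransferase that turns glutamate into glutamine on its tRNA fell, QRSL1 by 0.38, GATC by 0.48 and GATB by 0.45 on the log2 scale. DESeq2 called 2 of the 4 genes lower. The GATB call ended with the length dependence taken out (−0.26, edgeR adjusted p = 0.145). MTFMT, which formylates the initiator methionine, rose by 0.16 (edgeR adjusted p = 0.0424), and was not called under total-count scaling (−0.07, adjusted p = 0.386). The call also ended with DESeq2, without a filter on low counts, and without control replicate 1 or 3 or melittin replicate 2 or 3. Of 9 tested synthetase relatives and editing proteins 2 rose and 5 fell, with a median of −0.37, beside 38.1% higher and 38.3% lower among all tested genes. The count of 2 that rose was 0 without melittin replicate 2 and under total-count scaling, and 1 without control replicate 2 or 3 and with DESeq2. Under total-count scaling 26.3% of all tested genes were higher and 51.9% lower. The list also holds OSGEP and YRDC, which modify tRNAs next to the anticodon and fell by 0.86 and 0.16 on the log2 scale. SEPSECS, which completes selenocysteine on its tRNA, fell by 0.41 and the editing protein DTD2 by 1.43.

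Of 20 tested genes of tRNA processing and export, 6 rose and 9 fell, with a median of −0.18. These shares, 30.0% and 45.0%, lie near the 38.1% and 38.3% of all tested genes. POP1, a subunit of ribonuclease P, fell to 15.7 ± 0.482 CPM with melittin, against 50.7 ± 1.95 CPM in controls. XPO5, an exporter of small RNA precursors, fell by 0.70 on the log2 scale. RTCB, the ligase of spliced tRNAs, rose to 95.4 ± 4.84 CPM with melittin, against 63.0 ± 1.68 CPM in controls. XPOT, the main exporter of tRNA from the nucleus, rose by 0.41 on the log2 scale.

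**Figure D5:**
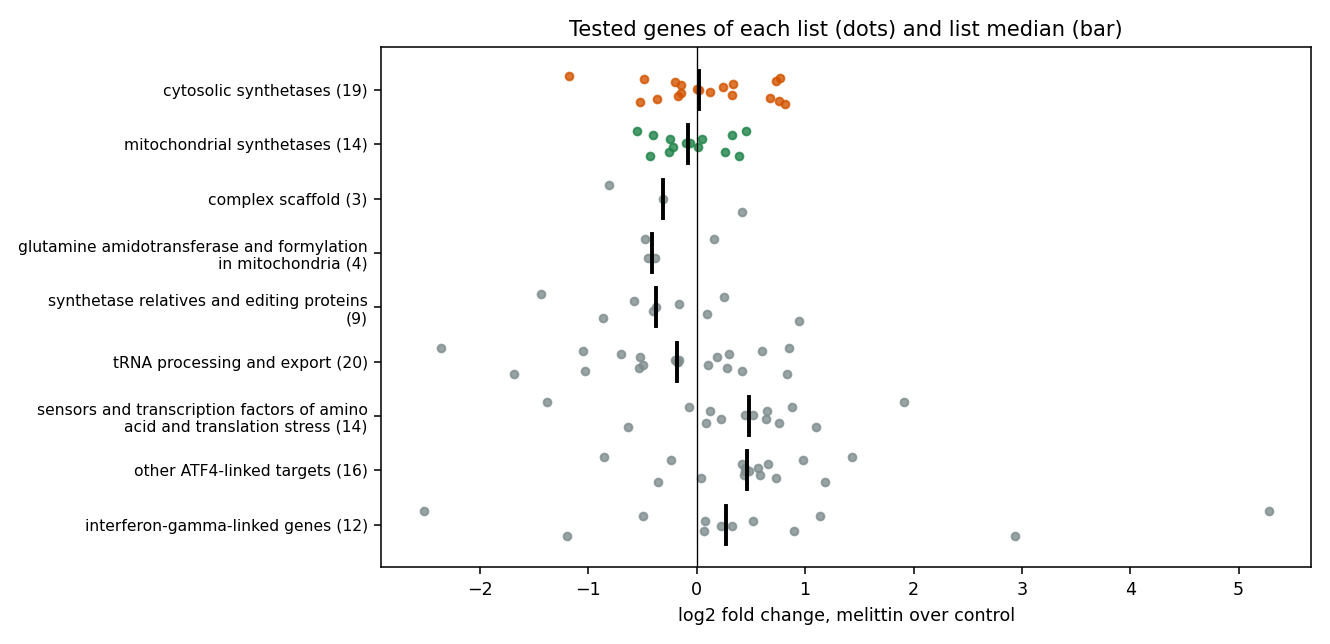
Log2 fold change (melittin over control) of each tested gene (dots) in the cytosolic and mitochondrial synthetases and in 7 further lists, with the median as a bar and the number of tested genes in brackets. The stress sensors and the other ATF4-linked targets have medians of 0.48 and 0.47, and the synthetase medians lie at 0.02 and −0.08.

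Sensors and factors of amino acid and translation stress rose in 10 and fell in 2 of 14 tested genes, with a median log2 fold change of 0.48. Among all tested genes 38.1% rose and 38.3% fell. Under total-count scaling 8 of the 14 were higher and 5 lower, beside 26.3% and 51.9% of all tested genes. ATF4 had 538.1 ± 14.2 CPM with melittin and 345.6 ± 1.45 CPM in controls, 1.56-fold higher (edgeR adjusted p = 1.65e-18). CEBPB, a partner of ATF4, was 1.84-fold and PPP1R15B, a phosphatase subunit that reverses the stress signal, 1.69-fold higher. EIF2AK2, the interferon-induced kinase PKR, was 2.61-fold lower. EIF2AK4, which encodes GCN2 and is named here after its value was seen, was not called (0.09, edgeR adjusted p = 0.0935).

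Of 16 tested other ATF4-linked targets, 12 rose and 3 fell, with a median of 0.47, beside 38.1% higher and 38.3% lower among all tested genes. PHGDH, the entry enzyme of serine synthesis, rose to 63.0 ± 2.37 CPM with melittin, against 27.9 ± 2.35 CPM in controls. The amino acid transporters SLC7A5 and SLC7A11 were 1.66-fold and 1.58-fold higher, and the cationic transporter SLC7A1 was 1.81-fold lower. Interferon-gamma-linked genes, the company in which WARS1 is usually placed, rose in 6 and fell in 3 of 12, with a median of 0.27 and a range from −2.52 to 5.28. No difference of these counts from the shares of all tested genes was tested. GBP1, a guanylate-binding protein of host defence, fell to 3.27 ± 1.06 CPM with melittin, against 18.6 ± 0.822 CPM in controls. GBP2 was 1.86-fold higher and IDO1 had 204 counts over the melittin libraries and 6 over the controls.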

How the data were processed

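RNA from 3 melittin and 3 control libraries was sequenced. Per the labels' protocols, libraries were made with a NEBNext Ultra II RNA kit. The genome build GRCh38 comes from the submitters' processing notes. The aligner, counter, strand option and annotation release used were not given in the sources used here. One deposited table holds the authors' raw read counts per gene, with gene names, lengths, coordinates and Gene Ontology terms. The deposited FPKM values are the authors' counts divided by gene length and by the library's total count (largest relative deviation 2.23e-09 over values of at least 20 counts), and a second deposited table repeats them.

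The counts were tested in R 4.3.3 by edgeR 4.0.16 with filterByExpr (12029 genes kept), TMM scaling, glmQLFit and glmQLFTest, two-sided, adjusted by Benjamini-Hochberg over all tested genes, threshold 0.05. CPM use the TMM-scaled library sizes. An SE is the absolute log2 fold change divided by the square root of the F statistic. The alternatives were median-of-ratios factors, library totals, DESeq2 1.42.0, other filters, limma 3.58.1 on log2(FPKM + 0.1) and log2(FPKM + 1), a loess trend on gene length taken out, a test against 1.5-fold, each library left out and a replicate block. The test was checked on simulated counts in which 200 of 12029 genes had known changes. The test recovered 80.6% of changes of 1.5-fold, 91.0% of 2-fold and 100% of 4-fold, with 4.23% false calls. With so few genes changed, against 76.4% called in the data, this check cannot judge the scaling.

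Pairs of melittin libraries differed by a chi-square of 2.23 to 3.92 per degree of freedom and pairs of control libraries by 1.73 to 1.76. No library was thus a second deposit of another, and each was counted as 1 sample, though this does not show separate cultures. Members and gene lists were chosen with earlier results of these data known. Values per library are given for the 8 largest called rises and falls, for members not called or not tested and for both enzymes of tryptophan and histidine, and elsewhere up to 4 called genes per list with the smallest adjusted p are named. FARSA per library, DDIT3 and GCN2 were added after their values were seen. Values of some genes on these lists are not reported here.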

Additional observations from a re-analysis of the deposited data

How the results depend on the processing

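Over 33 tested synthetases and 16 alternatives, 448 of 528 values kept their direction and their side of the threshold, 35 lost and 15 gained a call and 30 changed sign. AARS1, MARS1, YARS1, CARS1, SARS1 and FARSB kept their call under all 16. All genes higher and lower numbered 1761 and 1734 against 1.5-fold, where 5 cytosolic members were higher and 1 lower, and 0 mitochondrial members were higher and 0 lower. With libraries scaled by totals the cytosolic median was −0.21 and the mitochondrial −0.31, with 2 mitochondrial members higher and 9 lower. On log2(FPKM + 0.1) these medians were −0.21 and −0.29, and on log2(FPKM + 1) −0.20 and −0.22, each with 1 mitochondrial member higher and 9 lower. Of all 12029 tested genes 3159 were higher and 6244 lower with totals. On log2(FPKM + 0.1) 3082 were higher and 6156 lower, and on log2(FPKM + 1) 3096 and 6156. No difference of the members from these counts was tested. FPKM are scaled by totals too, a scaling that lowers the median of all genes. The cytosolic median was 0.0061 without a filter and 0.11 with the length trend removed, and the mitochondrial median −0.026 with DESeq2, which also tests SARS2 and VARS2.

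With totals alone, log2(FPKM + 0.1) and log2(FPKM + 1), the sign changed for EPRS1 (−0.11, −0.10, −0.10), NARS1 (−0.23, −0.23, −0.22), TARS1 (−0.21, −0.21, −0.20), NARS2 (−0.18, −0.10, −0.027) and WARS2 (−0.22, −0.22, −0.18). With the length trend removed it changed for IARS1 (0.14), NARS1 (−0.039), TARS1 (−0.0027), LARS2 (0.14) and WARS2 (−0.058), and without a filter for NARS1 (−0.015) and WARS2 (−0.011). The cause was not tested. With each library left out in turn, values ranged from −0.019 to 0.018 for NARS1, −0.14 to 0.014 for LARS2, −0.11 to 0.27 for NARS2 and −0.045 to 0.068 for WARS2, none of them called in any case. Cytosolic counts stayed at 9 higher and 8 lower in all 6 cases.

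Same-numbered libraries did not deviate together (correlations from −0.05 to 0.02), so the numbers were not taken as pairs. With a replicate block 4513 genes were higher and 4537 lower, and the synthetases again gave 9 higher and 8 lower cytosolic and 4 higher and 4 lower mitochondrial members.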

Other observations

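Several synthetase genes share bases with a neighbour, and these neighbours had their own values. DNM1L, which drives mitochondrial fission and overlaps YARS2 on the opposite strand by 18161 bases, fell by 0.75 on the log2 scale, with 9607 counts over the melittin and 19750 over the control libraries. GGA2 overlaps EARS2 on the same strand by 1242 bases and rose by 0.98 on the log2 scale (edgeR adjusted p = 1.06e-18). TERF2IP, which overlaps KARS1 on the opposite strand by 871 bases, rose by 0.43, while KARS1 had a log2 fold change of −0.18. ZMAT2 overlaps HARS2 on the same strand by 626 bases and rose by 0.43, while HARS2 had −0.25. ING1 and S100PBP, which overlap CARS2 and YARS1 on the opposite strand, rose by 0.64 and 0.40. How many reads of each pair fall in the shared bases cannot be told from counts per gene.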
